A study of Mus musculus with 8 samples.

Results

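The 10 genes described here encode S100 proteins: S100a1, S100a4, S100a6, S100a8, S100a9, S100a10, S100a11, S100a13, S100a14 and S100a16. They were matched by symbol to the Ensembl identifiers of the count table, and all 10 were among the 16341 genes counted. RNA was sequenced from 2 fractions of the mouse mammary carcinoma line 4T1, sorted on magnetic columns by the surface protein SCA1, with 4 libraries from 4T1-Sca1+ cells and 4 from 4T1-Sca1- cells. Neither fraction carried a transgene or a treatment in the labels, and both were gated as CD45-negative. The source label and the study give the parental line as the origin, whereas the labels' protocol names stained tumor, and it is not stated whether each replicate was a sort of its own. P-values therefore measure only the spread between these libraries, which may be technical. The study, which deals with metastasis, profiled both fractions to ask how their transcripts differ.

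S100 proteins are small calcium-binding proteins built from EF-hand motifs, and most of them work as dimers that bind a target once calcium is bound. Inside cells they act on annexins, the cytoskeleton and transcription factors. Some are released and act on receptors such as RAGE and TLR4. Several have long been studied in breast cancer, S100A4 for its link with invasion and metastasis, and S100A8 with S100A9 as calprotectin, an abundant protein of neutrophils.

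A group of 5 S100 genes was higher in 4T1-Sca1+ cells, by 7.33-fold for S100a14, 5.20-fold for S100a8, 2.90-fold for S100a16, 1.54-fold for S100a4 and 1.32-fold for S100a13. S100a10 was 1.46-fold lower and S100a11 was 1.45-fold lower, S100a1 and S100a6 were not called, and S100a9 was hardly detected in either fraction. With edgeR's quasi-likelihood test, 5 of the 9 S100 genes tested were thus called higher and 2 lower at an adjusted p under 0.05. These shares stand beside a background in which 31.3% of the 11717 tested genes passed as higher and 30.2% as lower, 61.5% in all, so being called is common in this comparison. The median log2 fold change of the 9 genes was 0.40, beside 0.01 over all genes tested. An increase of at least 1 on the log2 scale was less common, with 5.22% of genes tested, and 3 S100 genes were among them. S100a8, S100a14 and S100a16 also belong to the signature of SCA1+ cells that the study drew from these same libraries, so their direction is not independent evidence. S100a8 and S100a14 passed the expression filter through the 4T1-Sca1+ libraries, where they were higher. The counts of members tested and called, and the median over the 9 genes, carry that selection.

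**Figure D1:**
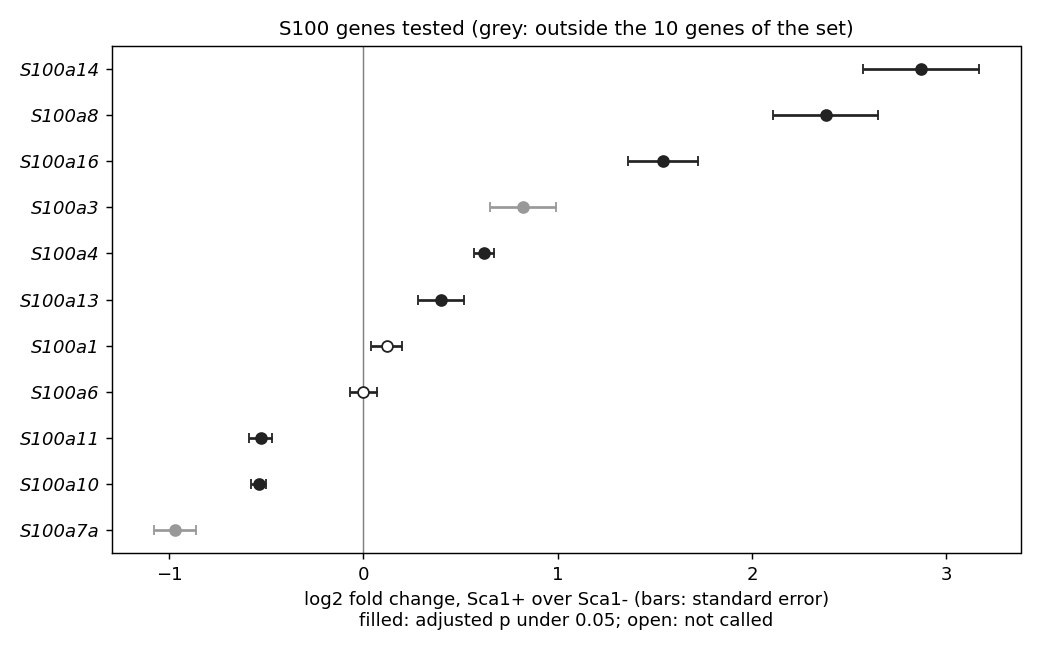
Log2 fold change of each tested S100 gene (4T1-Sca1+ over 4T1-Sca1-, x axis) with its standard error as a bar, where filled points had an adjusted p under 0.05 by edgeR and grey points are S100a3 and S100a7a, which are outside the 10 genes. S100a14, S100a8 and S100a16 lie above 1, and S100a10 and S100a11 lie close together at -0.54 and -0.53.

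Total counts ran from 13561804 to 16968215 per library. Ly6a, which encodes SCA1, had 145 to 193 normalized counts in the 4T1-Sca1+ libraries and at most 4.11 in the 4T1-Sca1- libraries. Normalized counts are counts divided by a size factor for each library. No pair of replicates agreed within counting noise. Sca1+ replicate 3 stood farthest from its group, with a chi-square per degree of freedom of 7.02 to 10.1 against the others, which differed among themselves by 2.19 to 4.00. Sca1- replicate 2 differed by 3.40 to 5.68 from the others, which differed among themselves by 1.92 to 3.09. All 7 calls were kept when any 1 library was left out, these 2 included.

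All 10 genes lie on mouse chromosome 3 in GRCm38. A block of 8 of them spans 185 kb, from 90511034 to 90695721, in the order S100a1, S100a13, S100a14, S100a16, S100a4, S100a6, S100a8 and S100a9. S100a11 and S100a10 sit 2825 kb further on, from 93520488 to 93564643. The RefSeq promoters of S100a8 and S100a9 are shown because these neighbouring genes, whose products form calprotectin, differed in whether they were detected. That of S100a11 is shown because it held a motif at several places and its gene was lower. Each line gives the bases upstream of the annotated gene in GRCm38.p6, 5′ to 3′ on the gene's strand, and capitals mark matches to TTNNGNAA, a C/EBP motif, in the first pair and to TGANTCA, an AP-1 motif, in the last. The GENCODE model begins before the RefSeq start in S100a8 and S100a11, so their lines stop 93 and 8 bases short of that start.
S100a8, chr3:90668821-90668977, plus strand: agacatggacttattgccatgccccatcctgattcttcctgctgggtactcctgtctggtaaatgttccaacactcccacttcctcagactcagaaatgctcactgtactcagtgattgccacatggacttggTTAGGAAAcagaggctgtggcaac
S100a9, chr3:90695722-90695971, minus strand: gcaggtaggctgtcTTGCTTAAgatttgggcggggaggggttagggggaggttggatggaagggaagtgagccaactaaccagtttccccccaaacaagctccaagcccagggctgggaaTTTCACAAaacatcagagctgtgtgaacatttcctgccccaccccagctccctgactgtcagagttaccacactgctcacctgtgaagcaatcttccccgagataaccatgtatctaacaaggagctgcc
S100a11, chr3:93520246-93520487, plus strand: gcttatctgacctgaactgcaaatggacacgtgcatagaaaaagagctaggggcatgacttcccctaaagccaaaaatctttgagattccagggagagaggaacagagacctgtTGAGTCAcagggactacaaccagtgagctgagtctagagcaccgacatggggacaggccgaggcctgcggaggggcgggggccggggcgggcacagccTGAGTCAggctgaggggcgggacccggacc

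Of the 10 genes, 8 matched a RefSeq promoter. The 250 bases before the RefSeq start were searched on both strands for TTNNGNAA, TGANTCA, the STAT motif TTCNNNGAA and the TATA box TATAAA. A C/EBP match was found at 1 place in S100a8, beginning 117 bases before the RefSeq start, and at 2 places in S100a9, beginning 236 and 130 bases before it. Such a match was held by 36.8% of the 32851 promoters in the table, so it is common. An AP-1 match, held by 6.75% of promoters, was found in S100a11 beginning 136 and 38 bases before the start, and at the second of the RefSeq starts of S100a16. TATAAA, held by 12.4% of promoters, began 30 bases before the RefSeq start of S100a8, in the stretch not printed, and 31 bases before that of S100a4. TTCNNNGAA, held by 7.02% of promoters, was found in none of the 8. A match is only a description of these letters and says nothing of binding.

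S100a8 (ENSMUSG00000056054; chromosome 3, 90668978 to 90670035, plus strand) and S100a9 (ENSMUSG00000056071; 90692632 to 90695721, minus strand) encode the chains of calprotectin. S100a8 had 50, 40, 33 and 41 counts in the 4T1-Sca1+ libraries and 7, 3, 8 and 10 in the 4T1-Sca1- libraries. Every 4T1-Sca1+ library was therefore above every 4T1-Sca1- library, although both groups had few counts. As normalized counts this was 38.5 ± 5.50 against 7.52 ± 3.54 (SD, n = 4), a log2 fold change of 2.38 (standard error 0.27, edgeR adjusted p = 8.33e-07). S100a9 had 2, 1, 0 and 0 counts in the 4T1-Sca1+ libraries and 0, 0, 1 and 0 in the 4T1-Sca1- libraries. No library exceeded 3 counts, the upper limit that a count of 0 allows, so no fold is given and a difference in S100a9 was not detectable at this depth. It did not pass the expression filter and was not tested.

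The level of S100a8 relative to S100a9 was also taken within each library, as the log2 ratio of counts with 0.5 added to each. It was 4.34, 4.75, 6.07 and 6.38 in the 4T1-Sca1+ libraries and 3.91, 2.81, 2.50 and 4.39 in the 4T1-Sca1- libraries, so the groups overlapped narrowly. The means were 5.38 ± 0.99 and 3.40 ± 0.89, and they differed by 1.98 with an exact permutation p of 0.0571, two-sided, and 0.114 after Benjamini-Hochberg adjustment over 4 ratios. With 4 libraries against 4 the smallest p such a test can give is 0.0286. Because S100a9 was at or near 0 throughout, the ratio rests on S100a8, a few reads of S100a9 and the count added. It therefore cannot show whether the 2 genes changed by unequal amounts. With 5 instead of 0.5 added to each count the difference was 1.84.

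Calprotectin is made in large amounts by neutrophils and other myeloid cells, so the myeloid markers were read beside S100a8. Of 20 myeloid markers, 13 were among the genes counted, and 10 of these had at most 10 counts in every library. Ptprc, which encodes CD45, had 2, 2, 2 and 4 counts in the 4T1-Sca1+ libraries and 0, 1, 1 and 0 in the 4T1-Sca1- libraries, without overlap. Over the 4 libraries of each group, Cxcr2 had 12 and 3 counts, Fcer1g 10 and 2 and Spi1 5 and 1, all with overlap. Itgam had 1 to 4 counts in a library, Csf3r 0 or 1 and Ngp 0 or 1, and Ly6g and Tyrobp were not among the genes counted. The 4T1-Sca1+ and 4T1-Sca1- totals were 10 and 11 for Itgam, 1 and 1 for Ngp, and 0 and 1 for both Mpo and Lyz2. They were 2 and 0 for Csf3r, 2 and 1 for Elane and 25 and 15 for Coro1a. Among these low markers, Ptprc, Cxcr2, Fcer1g, Spi1, Csf3r, Elane and Coro1a had higher totals in the 4T1-Sca1+ libraries. Only Itgam, Mpo and Lyz2 had higher totals in the 4T1-Sca1- libraries, and Ngp was equal. Without Cd14 and Il1b, which were clearly detected, the counted markers summed to 10.1 to 21.7 normalized counts in 4T1-Sca1+ libraries and to 7.64 to 13.3 in 4T1-Sca1- libraries. With those 2 genes the sums were 702 to 775 and 852 to 929. Cd14, a co-receptor of TLR4, fell by 0.29 on the log2 scale with an adjusted p of 0.000173. None of Ptprc, Itgam, Csf3r and Ngp exceeded 4 counts in any library, but Cxcr2 reached 7, Fcer1g 5 and Coro1a 11, each in a 4T1-Sca1+ library. The counts of Ptprc and the totals of most low markers lay on the same side as those of S100a8. The part of the myeloid markers in the S100a8 result was not tested.

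S100a14 (ENSMUSG00000042306; 90526856 to 90528837, plus strand) and S100a16 (ENSMUSG00000074457; 90537254 to 90543151, plus strand) lie 8.42 kb apart, and their products are both found in epithelial cells. S100a14 had 42, 45, 54 and 58 counts in the 4T1-Sca1+ libraries and 4, 3, 12 and 5 in the 4T1-Sca1- libraries. The lowest 4T1-Sca1+ library was well above Sca1- replicate 3, which was the highest of its group. The normalized counts were 46.8 ± 6.88 and 6.49 ± 4.71 (SD, n = 4), a log2 fold change of 2.87 (standard error 0.30, edgeR adjusted p = 2.33e-07). Without Sca1- replicate 3 the log2 fold change was 3.47, so that library alone moved the size by over 1.5 times.

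S100a16 had 71, 79, 96 and 119 counts in the 4T1-Sca1+ libraries and 34, 32, 21 and 26 in the 4T1-Sca1- libraries, again with no overlap. Its normalized counts were 85.7 ± 17.7 and 29.6 ± 4.38, and its log2 fold change was 1.54 (standard error 0.18, edgeR adjusted p = 9.73e-07). Within a library, the log2 ratio of S100a14 to S100a16 was -0.75, -0.81, -0.82 and -1.03 in 4T1-Sca1+ cells. It was -2.94, -3.22, -0.78 and -2.27 in 4T1-Sca1- cells, where replicate 3 lay among the 4T1-Sca1+ values. The difference of 1.45 had an exact permutation p of 0.114, two-sided, and 0.152 after adjustment, so the data do not show that these neighbours changed by unequal amounts. With 5 instead of 0.5 added to each count the difference was 0.84, so its size depends on the count added.

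**Figure D2:**
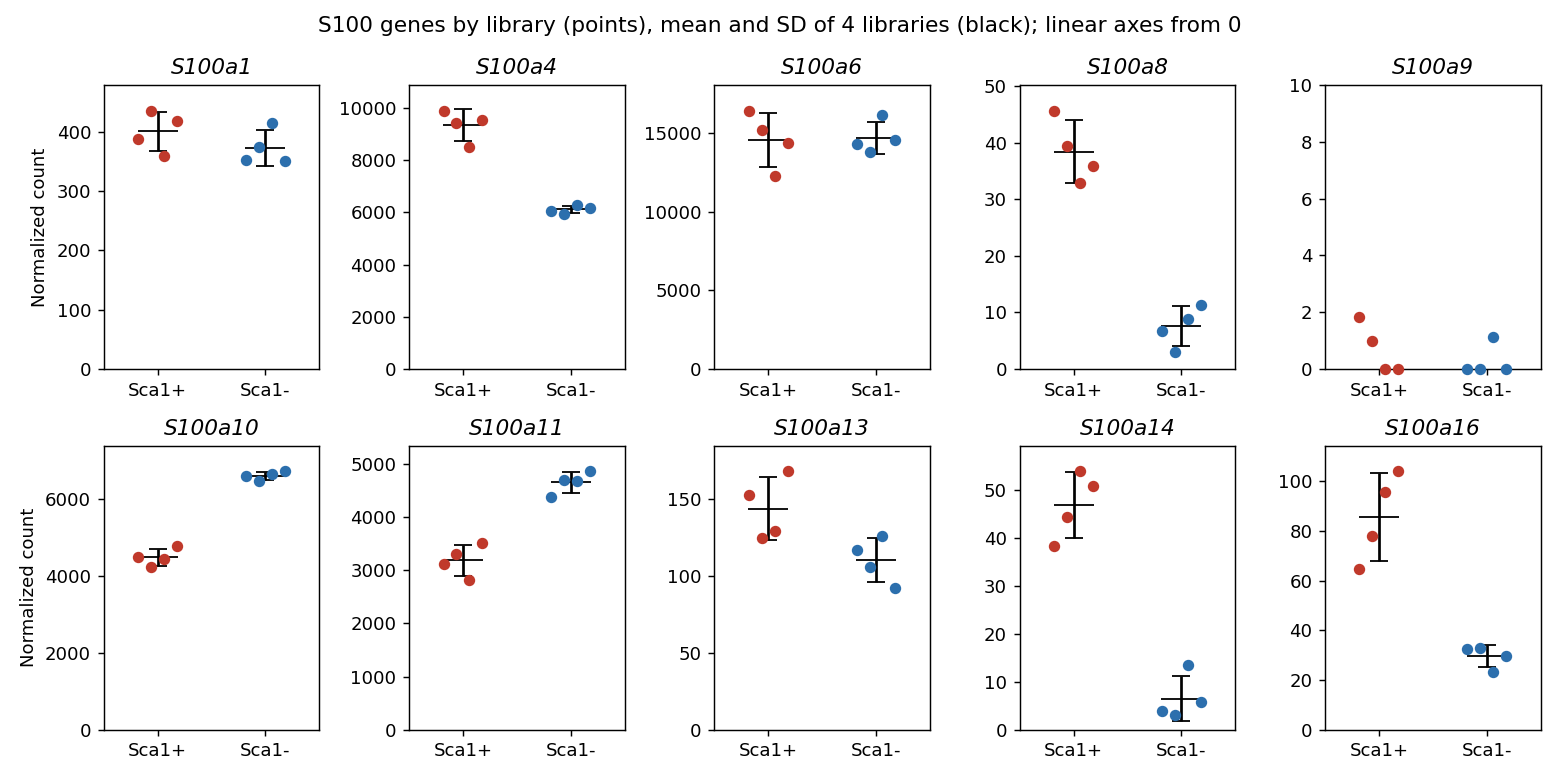
Normalized counts (y axis, linear from 0, a scale of its own in each panel) of the 10 S100 genes in each of 4 4T1-Sca1+ and 4 4T1-Sca1- libraries (points), with mean and SD in black except for S100a9, which was at or near 0. The groups are apart for S100a4, S100a8, S100a10, S100a11, S100a14 and S100a16, and they overlap for S100a1, S100a6, S100a9 and S100a13.

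S100a4 (ENSMUSG00000001020; 90603771 to 90606045, plus strand), also known as metastasin, binds non-muscle myosin. It was abundant in both fractions, with 10828, 9566, 8512 and 10922 counts in the 4T1-Sca1+ libraries and 6342, 5793, 5646 and 5413 in the 4T1-Sca1- libraries. The groups did not overlap, and Sca1+ replicate 3 was the lowest of its group. The normalized counts were 9345 ± 602 and 6117 ± 146 (SD, n = 4), and the log2 fold change was 0.62 (standard error 0.05, edgeR adjusted p = 7.52e-09), or 0.67 without Sca1+ replicate 3. A same-strand gene model, Gm42674, covers 51.7% of the exon length of S100a4 and was not among the genes counted, so reads that fit both models could have been handled in ways not stated in the sources used here.

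S100a4 is also used as a fibroblast marker, so fibroblast genes were read beside it. Of 12 fibroblast markers, 9 were counted and 4 were tested, of which Col1a1, Pdgfra and Sparc were higher and none was lower. Among all genes tested, 31.3% were higher and 30.2% lower. Pdgfra had 560.2 ± 26.1 normalized counts in 4T1-Sca1+ and 364 ± 25.6 in 4T1-Sca1- cells, and Sparc, a matrix protein also made by tumor cells, had 2543 ± 85.0 and 2012 ± 120.5. Col1a1, a collagen chain, had 47.6 ± 10.6 and 28.6 ± 3.93. The fourth tested marker, Postn, had 24.7 ± 7.87 and 24.2 ± 3.85 and was not called (log2 fold change 0.05, adjusted p = 0.868, edgeR). Col1a2, the partner chain, stayed at 2 to 8 counts, and Col3a1, Lum and Thy1 were not among the genes counted. Other markers were too low to be tested but did not overlap between the fractions. Dcn, which encodes decorin, had 15, 14, 6 and 14 counts in the 4T1-Sca1+ libraries and 1 in each 4T1-Sca1- library. Over the 4 libraries of each group, Pdgfrb, a receptor of pericytes and fibroblasts, had 27 and 1 counts and Acta2, smooth muscle actin, 11 and 0. Fap, a marker of activated fibroblasts, had 4 and 11, with overlap. The markers summed to 3104 to 3322 normalized counts in 4T1-Sca1+ libraries and to 2282 to 2637 in 4T1-Sca1- libraries, and their part in the S100a4 result was not tested. In bulk libraries, fewer cells of a type and less RNA per cell cannot be told apart.

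S100a13 (ENSMUSG00000042312; 90514435 to 90524581, plus strand) takes part in the release of FGF1 and interleukin-1α, which lack a signal peptide. It had 167, 127, 129 and 192 counts in the 4T1-Sca1+ libraries and 122, 103, 113 and 81 in the 4T1-Sca1- libraries. As normalized counts, the highest 4T1-Sca1- library (126) was just above the lowest 4T1-Sca1+ library (125). The means were 144 ± 20.3 and 110.1 ± 14.3, the log2 fold change was 0.40 (standard error 0.12), and the edgeR adjusted p was 0.00834, the largest among the 7 calls. Its start lies 0.043 kb from that of S100a1 (ENSMUSG00000044080; 90511034 to 90514392, minus strand), which is transcribed the other way and is best known from heart muscle. S100a1 had 426, 442, 361 and 479 counts in the 4T1-Sca1+ libraries and 369, 364, 373 and 307 in the 4T1-Sca1- libraries, with overlap after normalization. Its log2 fold change of 0.12 (standard error 0.08, 95% interval -0.07 to 0.31) was not called, with an adjusted p of 0.185 by edgeR.

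S100a6 (ENSMUSG00000001025; 90612882 to 90624181, plus strand), or calcyclin, took the most counts of the 10 genes. It had 17964, 15380, 12304 and 16434 counts in the 4T1-Sca1+ libraries and 14966, 13447, 14521 and 12728 in the 4T1-Sca1- libraries. The groups overlapped fully, with Sca1+ replicate 3 the lowest after normalization. The means were 14560.1 ± 1740.5 and 14698 ± 1023 normalized counts, and the 95% interval of the log2 fold change ran from -0.17 to 0.17 (adjusted p = 0.997, edgeR). This gene lies between S100a4 and S100a8, which were both higher.

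S100a10 (ENSMUSG00000041959; 93555080 to 93564643, plus strand), or p11, forms a complex with annexin A2 at the plasma membrane. It had 4908, 4303, 4448 and 5459 counts in the 4T1-Sca1+ libraries and 6896, 6289, 5972 and 5882 in the 4T1-Sca1- libraries. The normalized counts were 4486 ± 221 and 6601 ± 109 (SD, n = 4) and did not overlap. Its log2 fold change was -0.54 (standard error 0.04, edgeR adjusted p = 1.28e-08). Anxa2, which encodes annexin A2, fell by less, with 17360 ± 738 against 20029 ± 484 normalized counts (log2 fold change -0.19, adjusted p = 0.000709, edgeR).

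Within a library, the log2 ratio of S100a10 to Anxa2 counts was -2.03, -2.04, -1.92 and -1.82 in the 4T1-Sca1+ libraries and -1.56, -1.64, -1.60 and -1.61 in the 4T1-Sca1- libraries. All 4 4T1-Sca1+ libraries were below all 4 4T1-Sca1- libraries, by 0.35 on average, with an exact permutation p of 0.0286, two-sided, the smallest this design allows. After adjustment over 4 ratios the p was 0.114, which does not pass, and no lone ratio could pass in this design.

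S100a11 (ENSMUSG00000027907; 93520488 to 93526287, plus strand), or calgizzarin, binds annexin A1. It had 3408, 3358, 2826 and 4008 counts in the 4T1-Sca1+ libraries and 4575, 4573, 4207 and 4256 in the 4T1-Sca1- libraries. The normalized counts were 3188 ± 294 and 4651 ± 204, without overlap, and the log2 fold change was -0.53 (standard error 0.06, edgeR adjusted p = 5.56e-07). Anxa1, which encodes annexin A1, had 6179 ± 402 and 8934 ± 409 normalized counts (log2 fold change -0.52, adjusted p = 1.53e-07, edgeR). The log2 ratio of S100a11 to Anxa1 was -0.96 ± 0.12 in 4T1-Sca1+ and -0.94 ± 0.10 in 4T1-Sca1- libraries, with overlapping ranges of -1.09 to -0.81 and -1.05 to -0.83. The difference was -0.02 (exact permutation p = 0.829, two-sided, n = 4, and 0.829 after adjustment).

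**Figure D3:**
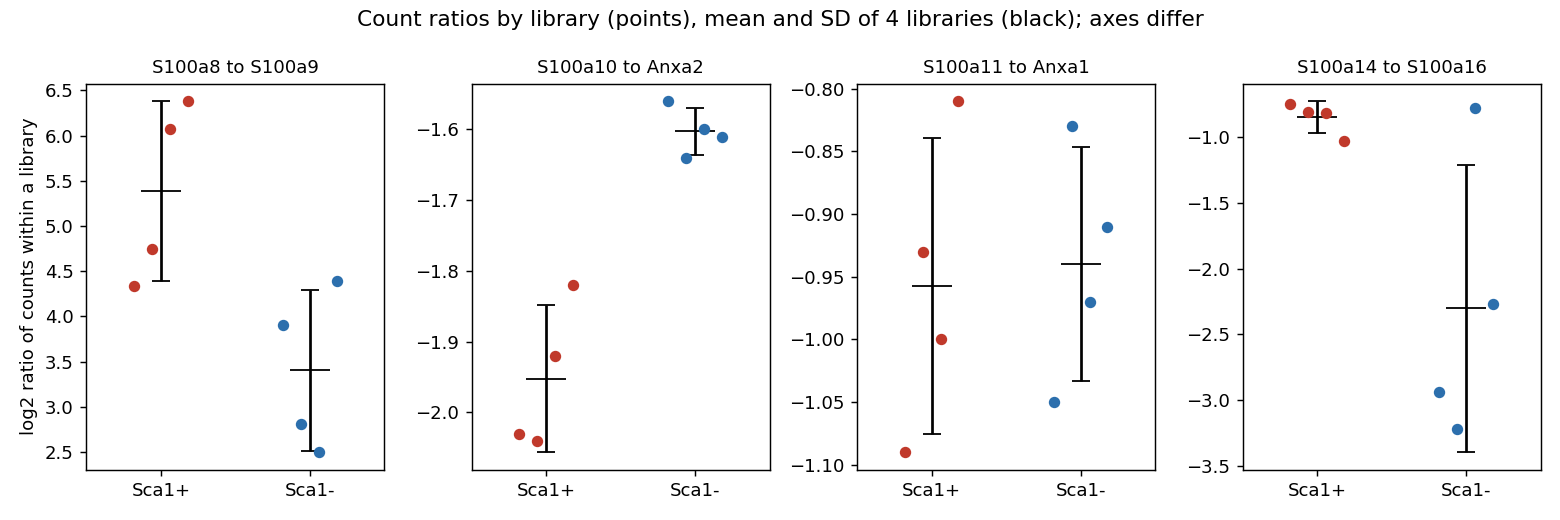
Log2 ratio of the counts of 2 genes within each library (y axis, a scale of its own in each panel) for 4 pairs, with 4 4T1-Sca1+ and 4 4T1-Sca1- libraries as points and mean and SD in black. The groups are apart for S100a10 to Anxa2, and for S100a14 to S100a16 a single 4T1-Sca1- library, replicate 3, lies at -0.78 among the 4T1-Sca1+ values.

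Levels of different genes were compared per length of exon and per library size, on the RPKM scale. In 4T1-Sca1+ cells the order by mean was S100a4 (1057 ± 71.0), S100a6 (704 ± 85.9), S100a11 (412 ± 38.8), S100a10 (245 ± 12.2), S100a1 (38.2 ± 3.25), S100a13 (13.3 ± 1.90), S100a8 (3.67 ± 0.532), S100a16 (3.50 ± 0.717), S100a14 (1.79 ± 0.259) and S100a9. Of these neighbours in order, S100a8 and S100a16 had overlapping libraries and the others did not. By counts S100a6 was above S100a4, so their order here depends on the exon lengths used, 1367 and 584 bases. In 4T1-Sca1- cells S100a6 (704 ± 50.4) came first, with S100a4 (686 ± 17.8) overlapping it, then S100a11 (596 ± 26.2) and S100a10 (357 ± 6.56). At the low end S100a16 (1.20 ± 0.176), S100a8 (0.710 ± 0.334), S100a14 (0.246 ± 0.179) and S100a9 each overlapped the next. The tested genes with the larger fold changes were those at the low end of the scale, and the abundant genes differed by less. At that end S100a8 and S100a14 were tested only through the 4T1-Sca1+ libraries, and S100a9 was not tested. The pattern therefore carries the selection made by the expression filter.

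The 10 genes took 0.191% to 0.232% of all counts in 4T1-Sca1+ libraries and 0.200% to 0.223% in 4T1-Sca1- libraries, 0.217 ± 0.0177% against 0.210 ± 0.00974% (SD, n = 4). The summed share thus differed by less than the spread between libraries, while its makeup differed. S100a4 made up 29.0% of these counts in 4T1-Sca1+ and 18.8% in 4T1-Sca1- cells, and S100a11 9.88% and 14.3%. S100a6 made up 45.0% and 45.1%.

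Of the 9 tested genes, 6 had no overlap between the groups, beside 54.7% of all genes tested. S100a8 and S100a14 are among the 6 and passed the expression filter through the 4T1-Sca1+ libraries, so this count carries that selection. The neighbours of the 10 genes showed both directions as well. Of 11 other protein-coding genes within 50 kb of one of them, 9 were counted and 6 were tested, of which 3 were higher, 2 lower and 1 not called, with a median log2 fold change of 0.15. Npr1, a natriuretic peptide receptor gene on the 3′ side of S100a1, rose by 1.52 on the log2 scale (adjusted p = 5.62e-09, edgeR), and Chtop, a chromatin-bound RNA export factor, by 0.16 (adjusted p = 0.0107). Between S100a1 and S100a9 lie other S100 genes. S100a3 rose, with 88.6 ± 3.23 and 50.4 ± 15.5 normalized counts (log2 fold change 0.82, adjusted p = 0.000371, edgeR). S100a7a, the mouse relative of psoriasin, fell, with 114 ± 19.8 and 225 normalized counts on average (208 to 248 over the 4T1-Sca1- libraries) (log2 fold change -0.97, adjusted p = 1.02e-06, edgeR). S100a5 was below the filter, as was S100a2, and S100b, S100g and S100z were not among the genes counted.

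**Figure D4:**
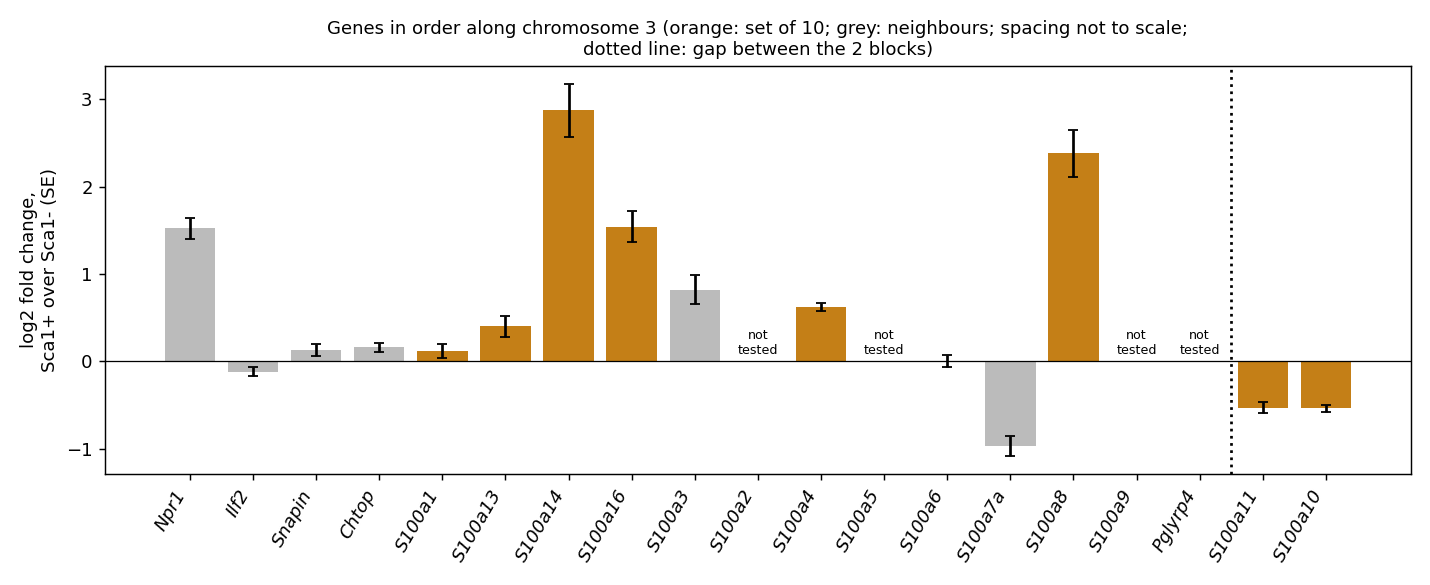
Log2 fold change (4T1-Sca1+ over 4T1-Sca1-, y axis, bars with standard error) of the counted genes in order along chromosome 3, with the 10 S100 genes in orange and their protein-coding neighbours within 50 kb in grey. Adjacent genes went in different directions, such as S100a7a at -0.97 beside S100a8 at 2.38, and S100a6 is at 0.

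The cluster lies at the edge of the epidermal differentiation complex, which holds genes of the cornified envelope of skin. Of 25 genes of that complex, 7 were counted and 2 were tested, and both were lower, as were 30.2% of all genes tested. Tchh passed the expression filter only through the 4T1-Sca1- libraries, where it was higher. Tchh, which encodes trichohyalin, had 3.70 ± 1.80 and 20.5 ± 0.714 normalized counts (log2 fold change -2.40, adjusted p = 4.82e-06, edgeR). Pglyrp3, a peptidoglycan recognition protein, had 21.5 ± 3.45 and 58.8 ± 3.03 and a log2 fold change of -1.44 (adjusted p = 9.17e-07). The rest were below the filter or not counted.

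Among genes of proteins that S100 proteins bind or help to release, more were lower than higher. Of 14 partner genes, all tested, 2 were higher, 8 were lower and 4 were not called, with a median log2 fold change of -0.16. Beside these counts, 31.3% of all genes tested were higher and 30.2% lower, so calls in either direction are common. Sugt1, a co-chaperone bound by S100A6, had 867 ± 78.7 normalized counts in 4T1-Sca1+ and 1335 ± 42.4 in 4T1-Sca1- cells (log2 fold change -0.61, adjusted p = 1.40e-07, edgeR). The most abundant partners fell by less, Ahnak, which binds the S100A10 complex, by 0.21 (adjusted p = 0.0002) and Myh9, the heavy chain of non-muscle myosin bound by S100A4, by 0.13 (adjusted p = 0.0147). The cargoes of S100A13 release were called in opposite directions, narrowly for Fgf1. Fgf1 had 24.3 ± 3.86 and 16.7 ± 2.69 normalized counts, with overlap (log2 fold change 0.55, 95% interval 0.01 to 1.1, adjusted p = 0.0381, edgeR). Il1a had 3485 ± 289 and 5027 ± 235 and a log2 fold change of -0.52 (adjusted p = 5.35e-07, edgeR).

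The receptors of released S100 proteins also went both ways. Of 8 receptor genes, 7 were tested, of which 4 were higher, 2 lower and 1 not called, with a median log2 fold change of 0.22. The shares over all genes tested were 31.3% higher and 30.2% lower. Ager, which encodes RAGE, had 26.3 ± 5.46 normalized counts in 4T1-Sca1+ and 9.23 ± 2.31 in 4T1-Sca1- cells, with no overlap, and so rose by 1.51 on the log2 scale (standard error 0.27, edgeR adjusted p = 9.08e-05). Ager passed the expression filter only through the 4T1-Sca1+ libraries, and the counts and the median of this list carry that selection. Tlr4, a receptor for calprotectin, had 268 ± 21.9 and 183 ± 20.3, a log2 fold change of 0.57 (adjusted p = 4.26e-05). Mcam, an adhesion protein that binds S100A8 and S100A9, rose by 0.29 (adjusted p = 0.000715). Bsg, the most abundant receptor of the list, also known as EMMPRIN and bound by S100A9, had 6684 ± 368 and 9208 ± 276 normalized counts (log2 fold change -0.45, adjusted p = 1.72e-07), and Nptn, its relative, fell by 0.13 (adjusted p = 0.0199). Cd36 was at 0 or 1 count and was not tested.

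**Figure D5:**
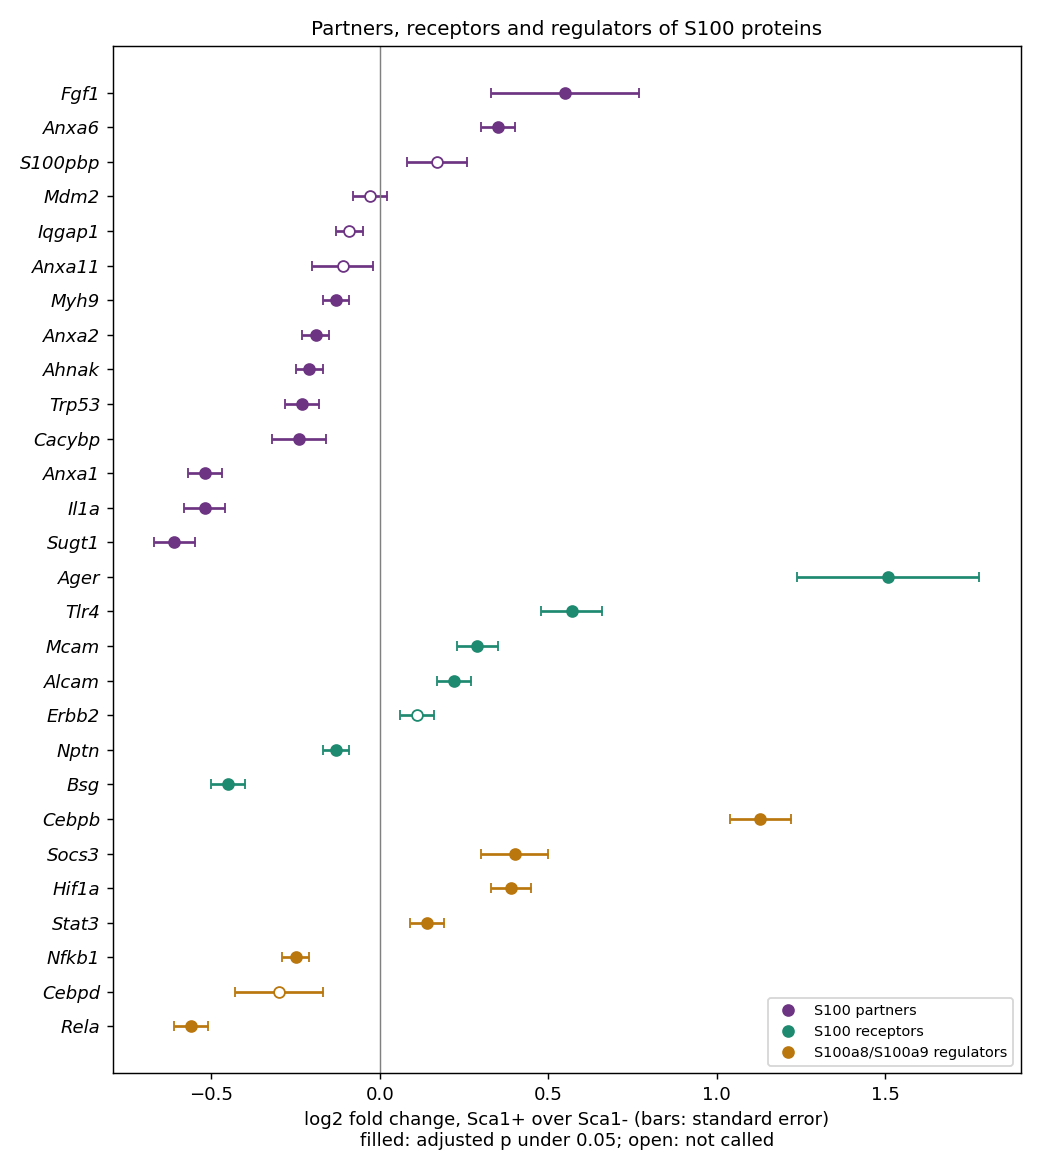
Log2 fold change (4T1-Sca1+ over 4T1-Sca1-, x axis) with its standard error for the tested genes of partners (purple), receptors (green) and regulators (ochre) of S100 proteins, where filled points had an adjusted p under 0.05 by edgeR. Ager at 1.51 and Cebpb at 1.13 lie farthest to the right, and Sugt1 at -0.61 and Rela at -0.56 farthest to the left.

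Of 9 genes known to act on S100a8 and S100a9 expression, 7 were tested, of which 4 were higher, 2 lower and 1 not called, with a median log2 fold change of 0.14. Over all genes tested, 31.3% were higher and 30.2% lower. Cebpb, a C/EBP factor that acts in myeloid and mammary cells, had 1464 ± 171 normalized counts in 4T1-Sca1+ and 670.3 ± 111 in 4T1-Sca1- cells, with no overlap and a log2 fold change of 1.13 (standard error 0.09, adjusted p = 1.67e-08, edgeR). Socs3, a feedback inhibitor of cytokine signaling, rose by 0.40 (adjusted p = 0.00165), and Hif1a, the hypoxia-inducible factor, by 0.39 (adjusted p = 1.17e-05). Rela and Nfkb1, subunits of NF-kappaB, fell by 0.56 (adjusted p = 1.88e-08) and 0.25 (adjusted p = 4.88e-05). Cebpa and Spi1, which drive myeloid differentiation, had at most 6 and 2 counts and were not tested.

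The labelled cell type was checked against epithelial and endothelial markers. Of 8 epithelial markers, 7 were tested, of which 2 were higher, 3 lower and 2 not called, beside 31.3% higher and 30.2% lower over all genes tested. Krt8, Krt18 and Krt7, keratins of simple epithelium, were abundant in every library, and Epcam had 3128 ± 101 and 3222 ± 35.2 normalized counts (adjusted p = 0.552, edgeR), while Krt5, a basal keratin, had at most 2 counts. Krt18 rose by 0.38 on the log2 scale (adjusted p = 8.61e-07), and Cdh1, which encodes E-cadherin, fell by 0.69 (adjusted p = 6.19e-10), so markers of the epithelium itself moved between the fractions. Krt14 fell by 0.23 (adjusted p = 0.00346, edgeR). The epithelial markers summed to 54183 to 59105 normalized counts in 4T1-Sca1+ and to 53743 to 57955 in 4T1-Sca1- libraries. Of 6 endothelial markers, 5 were counted and only Tie1 was tested, which fell by 0.60 (adjusted p = 0.0121). Cdh5 had at most 3 counts, and Pecam1, which encodes CD31, had 4, 7, 6 and 4 counts in 4T1-Sca1+ and 1, 2, 0 and 1 in 4T1-Sca1- libraries, without overlap and too few to be tested. Those markers summed to 33.8 to 40.9 and 42.3 to 63.9 normalized counts. The part of these marker changes in the S100 results was not tested.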

How the data were processed

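Per the labels, the 8 libraries were made with a TruSeq RNA kit and read on a NextSeq instrument. Per the submitters' processing notes, cutadapt 1.16, STAR 2.5.3a and the builds GRCm38 and mm10 were used; the counting tool, its annotation and its use of strand are not given in the sources used here. The authors deposited raw counts for 16341 genes and, in a second table, normalized signal for 15372 genes, which equalled the counts divided by DESeq2 size factors (relative difference at most 2.2e-16) without the 969 genes of a single count.

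The deposited counts entered edgeR 4.0.16 (R 4.3.3) unchanged (TMM, filterByExpr, glmQLFit and glmQLFTest, two-sided, no covariate), Benjamini-Hochberg adjusted over 11717 genes and called under 0.05. Symbols and positions came from GENCODE M21 (GRCm38), in which 16200 of the genes were found, and promoters from RefSeq. RPKM used the exon length of that annotation and TMM-scaled totals, with exons of all transcripts joined. Means are of normalized counts ± SD. Ratios within a library were compared with an exact permutation test over 70 splits (scipy). Libraries of a group with no more than 3 counts each were treated as being at the floor; this covers counting error only, as reads carry no molecular identifiers. Fits were tested on simulated data.

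The 10 genes, the other gene lists and the tests were chosen with earlier results of these data known. In each list, the 4 tested genes of largest change and the 2 of highest count, genes of a ratio and defining markers were named, as were the 4 neighbours of largest change. Other untested genes were named after their values were seen. Alternatives were other scalings and filters, DESeq2, limma-voom, limma on log2(value + 1) of the second table, a replicate block, GC- and length-corrected offsets, stricter thresholds, an added count of 5 in ratios, and leaving out each library.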

Additional observations from a re-analysis of the deposited data

Results flagged for a closer look

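Among 30 groups of 4 values (normalized counts of the 10 genes, the 4 ratios and the summed share, in each fraction), 1 library stood apart by Dixon's test, where chance alone gives about 1.5. It was S100a9 in Sca1- replicate 3, at 1.11 normalized counts where the other libraries of its group were at 0, and this is a single read.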

How the results depend on the processing

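The calls of 5 S100 genes as higher and 2 as lower were kept under every scaling, DESeq2, limma-voom, limma on the second table, GC- and length-corrected offsets, an adjusted p under 0.01 and the loss of any 1 library (5 to 5 higher and 2 to 2 lower). With at least 10 counts required in every library, 3 were higher, because S100a8 and S100a14 were then not tested. With the main filter, and a change of at least 1 on the log2 scale required beside the adjusted p, 3 were higher and 0 were lower. The adjusted p of S100a13 ran from 0.00199 to 0.0436 over its alternatives. S100a6, which was not called, changed sign at 0.04 with library totals alone, 0.03 with upper-quartile scaling, 0.01 with at least 10 counts in every library, 0.01 with length-corrected offsets, and from -0.07 to 0.07 when 1 library was left out (0.07 without Sca1+ replicate 3, 0.0043 without Sca1+ replicate 4 and 0.05 without Sca1- replicate 3). The ratio of S100a11 to Anxa1 ran from -0.06 to 0.03 with 1 library left out, S100a8 to S100a9 from 1.65 to 2.33, S100a10 to Anxa2 from -0.40 to -0.32 and S100a14 to S100a16 from 1.14 to 1.95. The difference in summed share ran from 0.00112 to 0.0147 percentage points. Adjusted p ran from 0.0571 to 0.25 for S100a10 to Anxa2 and for S100a8 to S100a9 over the alternatives, so neither passed in any. Most of these could not have passed, because the smallest exact p is 0.0571 with 3 libraries against 4. With 4 pairs it is 0.125.

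Same-numbered libraries deviated together with r of 0.0957, -0.15, -0.0339 and -0.00107 across genes, which does not tie libraries together by number. The largest r between libraries of the 2 groups was 0.278. It was that of Sca1+ replicate 3 with Sca1- replicate 2, the libraries that stood apart from their groups, and its source was not tested. With the replicate block, 5 genes were higher and 2 lower, and pairing gave the same differences of the ratios (1.98, -0.35, -0.02 and 1.45), with adjusted p of 0.25, 0.25, 0.75 and 0.333, where 4 pairs allow no raw p under 0.125. S100a9, S100a8 and S100a14 are limited by their low counts.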
